A study of Mus musculus with 4 samples.

Results

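The genes of the Nrf2 pathway and of glutathione metabolism followed across the series were Nfe2l2, Keap1, Slc7a11, Gclc, Gclm, Nqo1, Txnrd1, Srxn1, Gsta3 and Gstm1. They were found by matching the RefSeq accession of each microarray probe to the gene, and all 10 were on the array, among 22911 named genes. They had 14 of the 32994 named probes. Slc7a11, Txnrd1, Gsta3 and Gstm1 had 2 probes each and the other 6 genes had 1. The brightest probe, that with the highest mean level over the arrays, stands for its gene. All 10 brightest probes were well above background on all 4 arrays, so the filter on dim probes removed no gene of the 10.

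The study measured total RNA of cultured mouse bone marrow cells on 4 Agilent one-colour arrays, 1 for each of LysM-St18flox osteoclasts, LysM-St18flox macrophages, wild-type osteoclasts and wild-type macrophages. Macrophages were grown from marrow for 4 days in medium with 10% serum and M-CSF, a growth factor of this lineage, at 25 ng/ml. The same kind of macrophage, kept for another 3 days with RANKL at 50 ng/ml besides 25 ng/ml of M-CSF, gave osteoclasts, which are large, fused, bone-resorbing cells. RANKL is the cytokine that induces them, and RANKL and time in culture differed together. In this notation LysM-St18flox stands for a floxed allele of St18, a zinc finger transcription factor gene, with Cre expressed from the lysozyme M locus, which is active in macrophages, their precursors and neutrophils. Both LysM-St18flox groups carry it and both wild-type groups do not. The labels state neither the number, age and sex of the mice nor whether a genotype's macrophages and osteoclasts shared a donor mouse. No group had a second array, so no test could be made and no p-value is given. A difference of at least 2-fold is a criterion of size only.

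Nrf2, the protein made from Nfe2l2, is a transcription factor that switches on genes for defence against oxidants and reactive chemicals. In unstressed cells Keap1 binds it and hands it to a ubiquitin ligase for destruction, and oxidants that modify Keap1 let Nrf2 reach the nucleus, where it binds antioxidant response elements as a dimer with a small Maf protein. Its control is largely on the protein, so the mRNA of Nfe2l2 is not a measure of its activity. Reactive oxygen species act as signals downstream of RANKL, and in mouse cells Nrf2 is known to restrain the formation of osteoclasts.

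Levels are log2 signal relative to the 75th percentile of the probes on the same array, so 0 is that percentile and a step of 1 is a doubling. They are comparable between arrays for the same probe and not between probes. Each probe of the 10 genes had a single spot. Over other probes printed many times, spots of the same probe gave a difference between arrays an SD of 0.045 to 0.056 on the log2 scale, which is the precision within the arrays and not the spread between cultures.

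All 4 arrays lay on 1 slide, had 59.0% to 63.2% of spots well above background and had 0 saturated spots. The 8 osteoclast markers were well above background in both osteoclast cultures, with a summed linear level of 940.1 in LysM-St18flox osteoclasts against 7.36 in LysM-St18flox macrophages, and 745.9 in wild-type osteoclasts against 9.63 in wild-type macrophages. The 8 macrophage markers were well above background on all 4 arrays, with summed levels of 520.4 and 783.5 in LysM-St18flox osteoclasts and macrophages, and 477.1 and 802.6 in wild-type osteoclasts and macrophages. The sums compare arrays within a list and not lists with each other, since they are made of different probes. Of 9 neutrophil markers on the array, 9 were well above background in LysM-St18flox osteoclasts and 8 in LysM-St18flox macrophages, with sums of 9.86 and 40.4, against 9 and 8 in wild-type osteoclasts and macrophages, with sums of 14.3 and 33.1. In bulk RNA, fewer cells of a type and less RNA per cell cannot be told apart. The brighter St18 probe had a level of 1.12 in LysM-St18flox osteoclasts against 1.55 in wild-type osteoclasts. In macrophages it had -1.52 with LysM-St18flox against 0.29 in wild-type. By this probe St18 was 1.35-fold lower in LysM-St18flox osteoclasts and 3.51-fold lower in LysM-St18flox macrophages. The dimmer St18 probe went the other way: only the array of LysM-St18flox osteoclasts had it well above background, at -4.60 against -5.67 in wild-type osteoclasts, and had -6.81 in LysM-St18flox macrophages against -7.51 in wild-type macrophages. The labels do not say whether either probe lies inside the floxed exons, so they cannot check the deletion.

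The sequence that the pathway acts through could be looked up for 9 of the 10 genes, which have promoters in the RefSeq table used here (GRCm38.p6, 250 bases before to 50 after the start of the gene, 12 promoters because some genes have several starts). The core of the antioxidant response element, TGACNNNGC, was searched on both strands. It was found in 5 of the 12 promoters, those of 5 genes, against 12.4% of all 32851 promoters in the table. The promoters of Nfe2l2 (chr2:75704614-75704913, minus strand), Gclm (chr3:122245307-122245606, plus strand) and Gsta3 (chr1:21240335-21240634, plus strand) are printed whole, with the matched bases in capitals. Only genes with a match are printed, so Slc7a11 and Gstm1, which also differed at least 2-fold below but had no match, are not shown. A match in capitals that starts with GC is on the opposite strand.
Nfe2l2 promoter: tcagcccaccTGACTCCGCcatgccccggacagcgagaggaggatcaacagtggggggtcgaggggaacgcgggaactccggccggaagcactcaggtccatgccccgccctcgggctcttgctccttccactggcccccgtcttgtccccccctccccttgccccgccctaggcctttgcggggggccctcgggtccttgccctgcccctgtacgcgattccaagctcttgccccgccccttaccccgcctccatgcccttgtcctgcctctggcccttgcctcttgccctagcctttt
Gclm promoter: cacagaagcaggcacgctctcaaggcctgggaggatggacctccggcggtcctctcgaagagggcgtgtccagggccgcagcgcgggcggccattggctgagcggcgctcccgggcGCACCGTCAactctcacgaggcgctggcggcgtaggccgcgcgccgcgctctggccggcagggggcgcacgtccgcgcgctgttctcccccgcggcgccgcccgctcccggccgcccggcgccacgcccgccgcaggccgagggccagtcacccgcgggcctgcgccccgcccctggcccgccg
Gsta3 promoter: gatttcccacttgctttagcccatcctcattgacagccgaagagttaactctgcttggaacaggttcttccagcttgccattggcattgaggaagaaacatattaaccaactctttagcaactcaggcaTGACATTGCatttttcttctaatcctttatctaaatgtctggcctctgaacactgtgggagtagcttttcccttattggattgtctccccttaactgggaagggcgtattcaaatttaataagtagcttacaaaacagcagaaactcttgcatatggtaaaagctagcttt

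The match lay 240 bases before the start of Nfe2l2, 134 before that of Gclm and 121 before that of Gsta3. For Srxn1 (chr2:152105526-152105573, plus strand) and for 1 of the starts of Txnrd1 (chr10:82859088-82859148, plus strand) the surrounding bases are enough to show the match.
Srxn1 window: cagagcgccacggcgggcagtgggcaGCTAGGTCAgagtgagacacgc
Txnrd1 window: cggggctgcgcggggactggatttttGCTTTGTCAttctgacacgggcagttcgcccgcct

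In Srxn1 the match lay 28 bases after the start and in Txnrd1 92 bases before it, both on the opposite strand. The AP-1 element TGAGTCA, bound by Fos and Jun proteins and similar in its first bases, was found for Srxn1 alone among the 9 genes with a promoter in the table, at 102 and 45 bases before its start, and neither copy overlaps the match above. It was in 5.2% of all promoters. In Srxn1 the copy at 45 bases is followed by GC, so it differs from the searched core only in having G in place of C. The letters of the core were not in these windows of Keap1, Slc7a11, Nqo1 and Gstm1, and bases outside the windows were not searched.

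The first comparison asks what differs between osteoclasts and macrophages of the same genotype. In LysM-St18flox cells, 4 of the 10 genes were at least 2-fold lower in osteoclasts than in macrophages and 0 were at least 2-fold higher. Those 4 were Gstm1 and Gsta3, which attach glutathione to reactive chemicals, Gclm, the modifier subunit of the enzyme that makes the glutathione precursor, and Nfe2l2 itself. Of all genes measured in this comparison, 23.1% differed at least 2-fold in either direction and 12.2% were at least 2-fold lower. Differences were below 0 for 8 of the 10, with a median of -0.76, against 51.2% of all genes and a median of -0.02. In wild-type cells 1 of the 10 was at least 2-fold lower in osteoclasts, Gclm, and 0 were higher, where all genes had 13% in either direction and 7.32% lower, so the count is near that of all genes. There 7 of the 10 were below 0, with a median of -0.38, against 49.8% of all genes and a median of 0.00. Macrophage and neutrophil markers also were lower in osteoclasts of both genotypes, with median differences of -1.41 and -1.16 in LysM-St18flox cells and -0.95 and -0.34 in wild-type cells, and their part in these values was not tested.

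**Figure D1:**
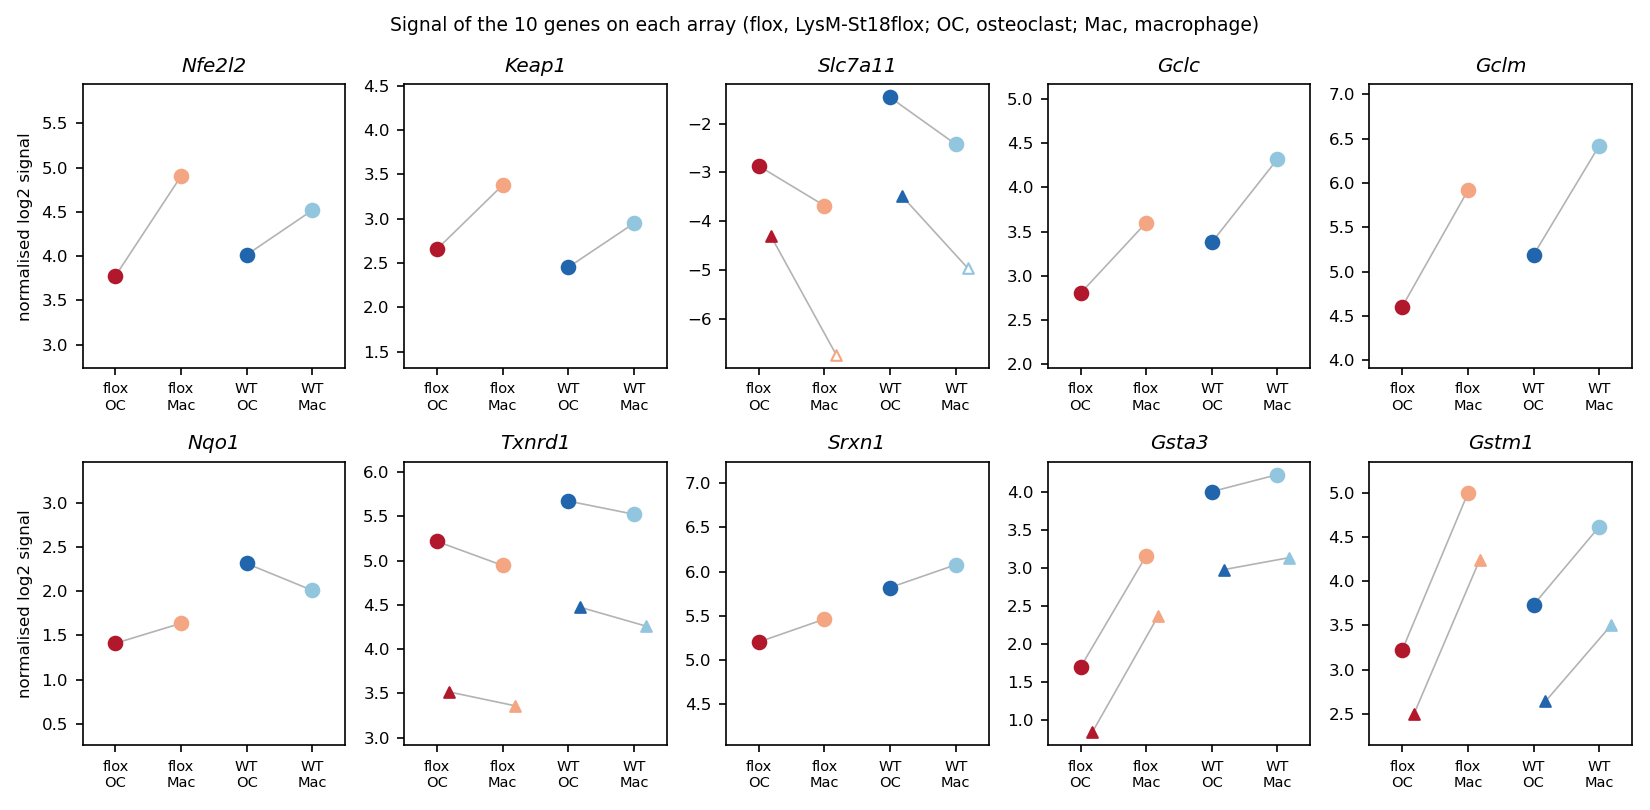
Normalised log2 signal (vertical axis, relative to the 75th percentile of the array) of the 10 genes on each of the 4 arrays, in a panel per gene with its own range. Circles are the brightest probe and triangles the other probe where there is one, open symbols are not well above background, and lines join osteoclasts (OC) to macrophages (Mac) of the same genotype. Gclm is lower in osteoclasts of both genotypes, and Gsta3 is lowest in LysM-St18flox osteoclasts at 1.70.

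Genotype was the other axis of the design. In osteoclasts, 2 of the 10 genes were lower with LysM-St18flox by at least 2-fold, Gsta3 and Slc7a11, the cystine carrier that supplies glutathione synthesis. Of all genes measured there, 7.75% differed at least 2-fold in either direction and 3.94% were lower, and the 10 genes had 9 differences below 0 and a median of -0.58, against 50.5% of all genes and a median of 0.00. Osteoclast markers moved with this comparison: 6 of 8 were at least 2-fold higher with LysM-St18flox and 0 lower, with a median of 1.47, led by Oscar at 4.94-fold, Calcr at 4.28-fold and Mmp9 at 4.22-fold. Neutrophil markers were below 0 for 8 of 9, with a median of -0.43, and macrophage markers had a median of 0.02. In macrophages the same criterion took Slc7a11 and Gsta3, 2 of 10 lower and 0 higher, where 6.27% of all genes differed in either direction and 2.97% were lower. Here 7 of the 10 were below 0, with a median of -0.54, against 51.7% and a median of -0.02 for all genes. Macrophage markers had 2 of 8 at least 2-fold higher and 0 lower between these cultures, with a median of 0.19, neutrophil markers a median of 0.36 over 8 measured, and osteoclast markers 2 of 7 at least 2-fold lower, with a median of -0.36. The part of these markers in the genotype differences was not tested. The raw signal scale moved with genotype: the 75th percentile was 1061.9 and 1159.3 in LysM-St18flox osteoclasts and macrophages, against 769.9 and 635.5 in wild-type osteoclasts and macrophages. After quantile normalisation, which gives all arrays the same distribution, 9 of 10 were below 0 in osteoclasts with a median of -0.59, and 7 of 10 in macrophages with a median of -0.42. The comparisons between genotypes use the same 4 arrays as those between cell types, so the comparisons are not independent of each other.

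**Figure D2:**
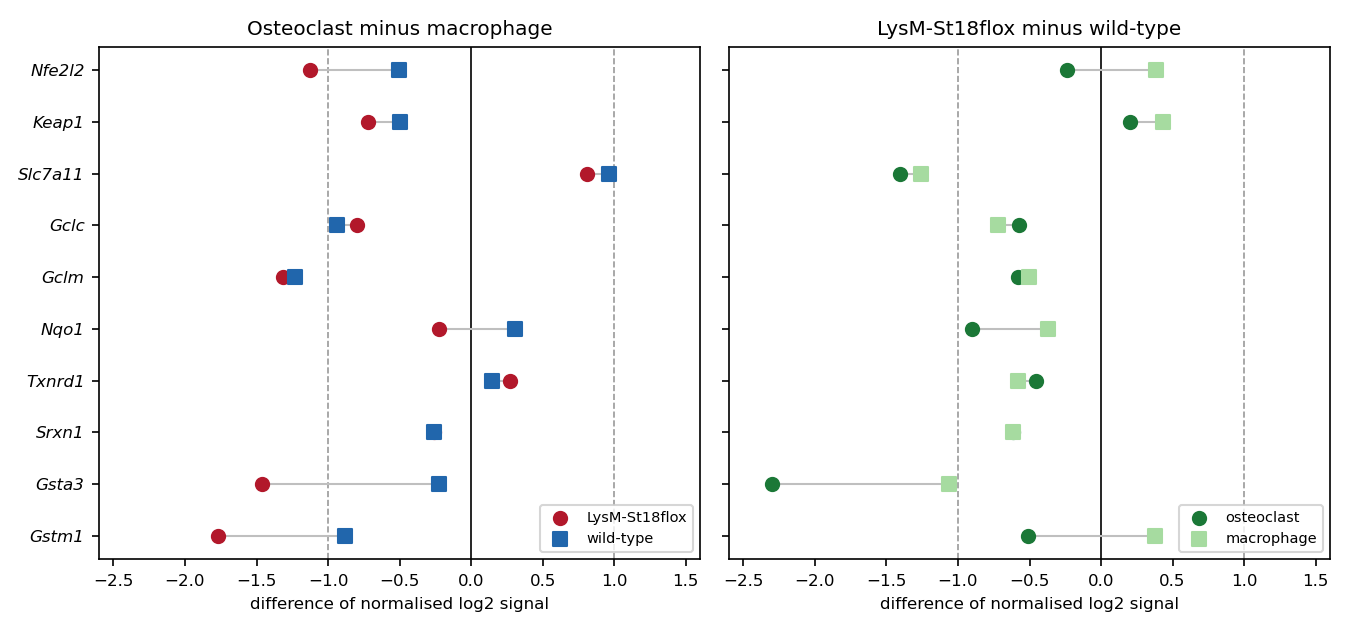
Differences of normalised log2 signal of the 10 genes, osteoclast minus macrophage in each genotype (left) and LysM-St18flox minus wild-type in each cell type (right). Dashed lines mark 2-fold. Nfe2l2 and Gstm1 have genotype differences on either side of 0 in the cell types, and Gsta3 reaches -2.30 in osteoclasts.

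Nfe2l2 had levels of 3.78 in LysM-St18flox osteoclasts and 4.90 in LysM-St18flox macrophages, against 4.01 in wild-type osteoclasts and 4.52 in wild-type macrophages. Both macrophage levels were above both osteoclast levels, and the LysM-St18flox cells held both extremes. The gene was 2.19-fold lower in osteoclasts than in macrophages of LysM-St18flox (log2 difference -1.13), while the wild-type difference was -0.50. Keap1, the sensor that holds Nrf2 back, had 2.66 in LysM-St18flox osteoclasts and 3.38 in LysM-St18flox macrophages, against 2.45 in wild-type osteoclasts and 2.95 in wild-type macrophages. Its order was the same, osteoclasts below macrophages, with differences of -0.72 in LysM-St18flox and -0.50 in wild-type cells. Keap1 was the only member of the 10 above 0 for LysM-St18flox minus wild-type in both cell types, at 0.21 in osteoclasts and 0.43 in macrophages, both under 2-fold.

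Glutathione is made from cysteine, glutamate and glycine, and its supply begins with cystine import. Slc7a11, the transport subunit of the cystine and glutamate exchanger, had -2.87 in LysM-St18flox osteoclasts and -3.68 in LysM-St18flox macrophages, against -1.46 in wild-type osteoclasts and -2.42 in wild-type macrophages. Both LysM-St18flox arrays were below both wild-type arrays, and within each genotype the osteoclasts were above the macrophages. With LysM-St18flox it was 2.65-fold lower in osteoclasts (-1.41) and 2.39-fold lower in macrophages (-1.26). Osteoclast minus macrophage differences were 0.81 in LysM-St18flox and 0.96 in wild-type cells, short of 2-fold. The dimmer probe had -4.29 in LysM-St18flox osteoclasts and -3.48 in wild-type osteoclasts and was not well above background in either macrophage culture. Its genotype difference in osteoclasts was -0.81, short of 2-fold. With the median over both probes, which takes in these dim signals, the osteoclast minus macrophage differences were 1.63 in LysM-St18flox and 1.22 in wild-type cells, both past 2-fold.

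Gclc, the catalytic subunit of glutamate-cysteine ligase, and Gclm, its modifier subunit, ran the other way between cell types. Gclc had 2.81 in LysM-St18flox osteoclasts and 3.60 in LysM-St18flox macrophages, against 3.38 in wild-type osteoclasts and 4.32 in wild-type macrophages. Gclm had 4.60 in LysM-St18flox osteoclasts and 5.92 in LysM-St18flox macrophages, against 5.19 in wild-type osteoclasts and 6.42 in wild-type macrophages. In both genes the lowest array was LysM-St18flox osteoclasts and the highest wild-type macrophages. Gclm was 2.48-fold lower in osteoclasts of LysM-St18flox (-1.31) and 2.35-fold lower in osteoclasts of wild-type (-1.23), and Gclc had -0.80 and -0.94 in the same comparisons. Between genotypes Gclc had -0.57 in osteoclasts and -0.72 in macrophages, and Gclm -0.58 in osteoclasts and -0.50 in macrophages, all under 2-fold. The step that follows, glutathione synthetase (Gss, chosen after its values were seen), had levels of 3.91 in LysM-St18flox osteoclasts and 2.48 in LysM-St18flox macrophages, against 3.19 in wild-type osteoclasts and 2.66 in wild-type macrophages. Against macrophages of the same genotype it was 2.68-fold higher in LysM-St18flox osteoclasts, opposite in direction to both ligase subunits, and 1.45-fold higher in wild-type osteoclasts.

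The 3 reductases had the narrowest ranges over the arrays, 0.73 to 0.90 on the log2 scale. Nqo1, which reduces quinones and is a standard readout of Nrf2, had 1.41 in LysM-St18flox osteoclasts and 1.64 in LysM-St18flox macrophages, against 2.31 in wild-type osteoclasts and 2.01 in wild-type macrophages. Osteoclasts were thus below macrophages in LysM-St18flox (-0.23) and above them in wild-type (0.30), and the LysM-St18flox arrays were below the wild-type arrays, with differences of -0.90 in osteoclasts and -0.37 in macrophages. Txnrd1, the cytosolic thioredoxin reductase, had 5.22 in LysM-St18flox osteoclasts and 4.95 in LysM-St18flox macrophages, against 5.67 in wild-type osteoclasts and 5.52 in wild-type macrophages. It was lower on both LysM-St18flox arrays, with differences of -0.46 in osteoclasts and -0.58 in macrophages. Its dimmer probe had larger genotype differences, -0.96 in osteoclasts and -0.90 in macrophages. Srxn1, sulfiredoxin, which repairs over-oxidised peroxiredoxins, had 5.21 in LysM-St18flox osteoclasts and 5.46 in LysM-St18flox macrophages, against 5.82 in wild-type osteoclasts and 6.08 in wild-type macrophages. Its osteoclast minus macrophage difference was -0.26 in both genotypes. By arithmetic its LysM-St18flox minus wild-type differences were then also near equal, at -0.62 in osteoclasts and -0.61 in macrophages. None of these differences of the 3 genes reached 2-fold.

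Gsta3, an alpha class glutathione transferase, had the widest range of the 10 over the arrays, 2.52 on the log2 scale. Its level was 1.70 in LysM-St18flox osteoclasts and 3.16 in LysM-St18flox macrophages, against 4.00 in wild-type osteoclasts and 4.22 in wild-type macrophages. Both LysM-St18flox arrays were below both wild-type arrays, and the LysM-St18flox osteoclasts stood lowest. Between osteoclasts it was 4.93-fold lower with LysM-St18flox (-2.30), and it was 2.75-fold lower in osteoclasts than in macrophages of LysM-St18flox (-1.46), while wild-type cells had an osteoclast minus macrophage difference of -0.22. The second probe gave -2.13 for the genotype difference in osteoclasts, -1.52 for osteoclast minus macrophage in LysM-St18flox and -0.16 in wild-type. In macrophages the genotype difference was -1.06, barely past 2-fold, and the second probe had -0.77. It fell short of 2-fold with normexp background correction (-0.84) and with the median over both probes (-0.92).

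Gstm1, a mu class glutathione transferase, had 3.22 in LysM-St18flox osteoclasts and 4.99 in LysM-St18flox macrophages, against 3.73 in wild-type osteoclasts and 4.61 in wild-type macrophages. Osteoclasts were below macrophages in both genotypes, and the LysM-St18flox cells again held both extremes. It was 3.41-fold lower in osteoclasts of LysM-St18flox (-1.77), against 1.84-fold lower in osteoclasts of wild-type (-0.88). Genotype differences were -0.51 in osteoclasts and 0.38 in macrophages. The second probe gave -0.14 in osteoclasts and 0.74 in macrophages, with -1.74 and -0.86 for osteoclast minus macrophage in LysM-St18flox and wild-type. Gstm1 has close paralogs, and 6 probes of Gstm2 to Gstm6 were well above background on all 4 arrays. For osteoclast minus macrophage these lay near Gstm1, at -1.83 to -1.27 in LysM-St18flox and -1.06 to -0.77 in wild-type. For LysM-St18flox minus wild-type they ran from -0.52 to 0.01 in osteoclasts and from 0.22 to 0.53 in macrophages. Whether these probes bind transcripts of more than 1 Gstm gene was not tested, so the values of Gstm1 are uncertain as those of a single gene.

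**Figure D3:**
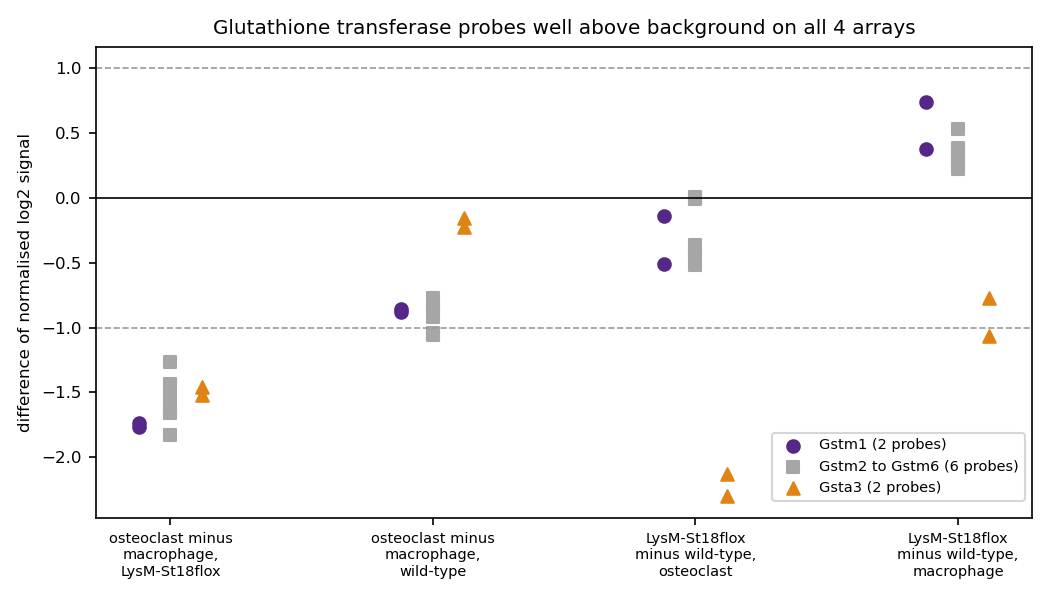
Differences of normalised log2 signal in the 4 comparisons for the 2 probes of Gstm1, 6 probes of Gstm2 to Gstm6 and the 2 probes of Gsta3, all well above background on all 4 arrays. Dashed lines mark 2-fold. The Gstm probes are all lower in osteoclasts than in macrophages of both genotypes. For LysM-St18flox minus wild-type they run from -0.52 to 0.01 in osteoclasts and from 0.22 to 0.74 in macrophages. The Gsta3 probes lie at -2.30 and -2.13 for LysM-St18flox minus wild-type in osteoclasts.

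The layout also gives the difference between the genotypes in their osteoclast minus macrophage difference. It reached 2-fold for 1 of the 10 genes, Gsta3, whose value was lower by 2.36-fold in LysM-St18flox (-1.24). Of all genes well above background on the 4 arrays, 7.9% reached 2-fold in either direction, so the count of 1 is near that of all genes. Gstm1 followed at -0.89, Nfe2l2 at -0.62 and Nqo1 at -0.53, and the other 6 lay between -0.23 and 0.14. With normexp, quantile normalisation and the authors' deposited table Gstm1 also reached 2-fold, at -1.11, -1.01 and -1.01. The osteoclast markers also differed between the genotypes, with a median osteoclast minus macrophage difference of 7.93 in LysM-St18flox and 5.87 in wild-type cells, and the part of this in the values above was not tested.

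Other genes of the pathway were described from lists that exclude the 10. Counts in all these lists stand beside the shares of all genes past 2-fold. For osteoclast minus macrophage the shares were 23.1% (12.2% lower) in LysM-St18flox and 13% (7.32% lower) in wild-type. For LysM-St18flox minus wild-type they were 7.75% (3.94% lower) in osteoclasts and 6.27% (2.97% lower) in macrophages. A list count near these shares is like that of all genes. Of 22 further Nrf2 targets, 8 were at least 2-fold lower and 0 higher in osteoclasts against macrophages of LysM-St18flox, with a median of -0.61. The 4 with the largest differences were Gpx2, a glutathione peroxidase, at -2.16, Hmox1, which breaks down heme, at -1.93, the carbonyl reductase gene Cbr3 at -1.76 and Ephx1, an epoxide hydrolase, at -1.51. In wild-type cells 2 were lower and 0 higher, Hmox1 at -1.35 and Gpx2 at -1.34, with a list median of -0.45. Between genotypes, 20 of the 22 were below 0 in osteoclasts, with a median of -0.38, and 2 were at least 2-fold lower, Hmox1 at -1.58 and Cbr3 at -1.06. In macrophages 16 of 22 were below 0, with a median of -0.27, and Hmox1 alone passed the criterion, 2.001-fold lower. With quantile normalisation these macrophage values were 13 of 22 and -0.08, and Hmox1 was short of 2-fold. Hmox1 had its lowest level, 4.40, in LysM-St18flox osteoclasts, with 6.32 in LysM-St18flox macrophages, against 5.98 in wild-type osteoclasts and 7.33 in wild-type macrophages.

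The 13 partners and regulators of Nrf2 were mixed. In LysM-St18flox cells Bach2, a repressor that competes for the same elements, was 4.35-fold higher in osteoclasts and Maff, a small Maf partner, 3.58-fold higher, while Nfe2, a relative of Nrf2 known from blood cells, was 4.36-fold lower. In wild-type cells Bach2 was at least 2.11-fold higher and Nfe2 3.67-fold lower in osteoclasts. Between osteoclasts Bach2 was 2.49-fold higher with LysM-St18flox. Bach2 was dim, with levels of -2.69 in LysM-St18flox osteoclasts and -4.01 in wild-type osteoclasts, and across the alternatives its differences went down to 0.97, 0.23 and 0.58 in these 3 comparisons, all short of 2-fold, while the differences of Nfe2 went to -1.11 in LysM-St18flox and -0.74 in wild-type. Bach1, the repressor of Hmox1, had 1.84 in LysM-St18flox osteoclasts and 2.64 in LysM-St18flox macrophages, against 2.49 in wild-type osteoclasts and 2.43 in wild-type macrophages, so its osteoclast minus macrophage difference was -0.79 in LysM-St18flox and 0.06 in wild-type cells.

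Genes that use, recycle or break down glutathione went both ways. Of 18 measured, 4 were at least 2-fold higher and 5 lower in osteoclasts against macrophages of LysM-St18flox, with a median of 0.18, and 2 were higher and 3 lower in wild-type, with a median of 0.06. The count of 5 lower was 3 with normexp. Gpx3, the secreted glutathione peroxidase, was 14.8-fold lower in LysM-St18flox osteoclasts and 5.82-fold lower in wild-type osteoclasts. Ggt5, which cleaves glutathione outside the cell, was 13.7-fold lower in LysM-St18flox and 2.92-fold lower in wild-type osteoclasts. With other settings the log2 differences of Gpx3 went to -2.82 in LysM-St18flox and -1.66 in wild-type from -3.89 and -2.54 as reported, and that of Ggt5 in LysM-St18flox to -2.31 from -3.78. Chac1, which degrades glutathione inside the cell, was 10.7-fold higher in LysM-St18flox and 4.13-fold higher in wild-type osteoclasts, and Hagh, the second glyoxalase, was 3.98-fold and 3.33-fold higher. Gsr, which reduces oxidised glutathione, had osteoclast minus macrophage differences of 0.58 in LysM-St18flox and 0.14 in wild-type cells. Between genotypes the count was 2 lower and 0 higher in osteoclasts, Ggt5 at -1.77 and Oplah, the 5-oxoprolinase gene, at -1.18, and 0 in either direction in macrophages. With other settings Oplah went to -0.97, short of 2-fold, and Ggt5 to -1.01.

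Of the other glutathione transferases, 23 were measured in LysM-St18flox cells, and 4 were at least 2-fold higher and 8 lower in osteoclasts, with a median of 0.25. Among the 8 lower were Gstm2 to Gstm6, at -1.83 to -1.27. Whether their probes tell these paralogs apart was not tested, so the 8 may not be separate genes. Of the 4 higher, 2 were bounds from dim probes and fell short of 2-fold with normexp, which left 2. The largest were Gstt1, a theta class enzyme, 12.3-fold higher, the microsomal Mgst1, 9.69-fold lower, Hpgds, which makes prostaglandin D2, 5.79-fold lower, and Mgst2, also microsomal, 5.36-fold higher. In wild-type cells 2 of 22 were higher and 3 lower in osteoclasts, with a median of -0.04, and the same 4 genes had 21.2-fold higher, 4.16-fold lower, 3.38-fold lower and 3.35-fold higher levels. Between genotypes 0 of 21 reached 2-fold in osteoclasts, while with LysM-St18flox in macrophages Gstt1 was 2.66-fold higher and Mgst2 2.20-fold lower. Mgst2 went to -0.84 with other settings, short of 2-fold.

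Among 20 measured genes of the thioredoxin and peroxide systems, 1 was at least 2-fold higher and 5 lower in LysM-St18flox osteoclasts, with a median of -0.21, and 0 were higher and 2 lower in wild-type osteoclasts, with a median of -0.12. The sestrins Sesn1 and Sesn3, stress-inducible inhibitors of mTORC1, were 7.82-fold and 6.79-fold lower in LysM-St18flox osteoclasts and 4.16-fold and 4.45-fold lower in wild-type osteoclasts. With other settings the log2 difference of Sesn3 went to -1.72 in LysM-St18flox and -1.40 in wild-type from -2.76 and -2.15. Catalase (Cat), which breaks down hydrogen peroxide, was 3.45-fold lower and Prdx3, a mitochondrial peroxiredoxin, 2.63-fold higher in LysM-St18flox osteoclasts. Between genotypes 0 of the 20 reached 2-fold in either cell type, with medians of -0.18 in osteoclasts and -0.12 in macrophages.

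Slc7a11 is also known as a target of Atf4, the factor of the amino acid response, and 14 genes of that response and of cysteine supply had medians above 0 for osteoclast minus macrophage. In LysM-St18flox cells 7 of 14 were at least 2-fold higher and 0 lower, with a median of 1.04, and in wild-type cells 5 were higher and 1 lower, with a median of 0.50. Cth, which makes cysteine from cystathionine, was 9.17-fold higher in LysM-St18flox osteoclasts and at least 4.21-fold higher in wild-type osteoclasts. The glutamine carrier Slc1a5 was 6.80-fold higher in LysM-St18flox and 3.33-fold higher in wild-type osteoclasts, and Asns, asparagine synthetase, 4.73-fold and 2.72-fold higher. Atf4 itself had differences of 0.91 in LysM-St18flox and 0.42 in wild-type cells. Slc3a2, the heavy chain that pairs with Slc7a11 (chosen after its values were seen), went the other way, 1.66-fold lower in LysM-St18flox and 2.10-fold lower in wild-type osteoclasts. With other settings its log2 difference went to -0.29 in LysM-St18flox from -0.73. In wild-type it went to -0.52 from -1.07, short of 2-fold. Between genotypes, in osteoclasts Slc1a5 at 2.34-fold and Cth at 2.15-fold were higher and Trib3 at 2.19-fold was lower, with a median of 0.07, and in macrophages Asns alone was at least 2-fold lower, at -1.23, with a median of -0.33. Cth, Trib3 and Asns were at the edge of 2-fold in these, and went to 0.58, -0.99 and -0.99 with other settings. For osteoclast minus macrophage, Cth went down to 1.71 in LysM-St18flox from 3.196 as reported, and to 0.67 in wild-type from 2.07.

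Genes of the NADPH oxidases, which make superoxide, had 2 of 9 at least 2-fold higher and 2 lower in LysM-St18flox osteoclasts, and 1 higher and 2 lower in wild-type osteoclasts, with medians of 0.08 and -0.03. Nox1, a catalytic subunit, was at least 7.22-fold higher in LysM-St18flox osteoclasts and 3.28-fold higher in wild-type osteoclasts, while Cybb, the catalytic subunit of phagocytes, was 6.79-fold and 3.15-fold lower and its activator Ncf1 3.31-fold and 2.28-fold lower. Rac2, a GTPase of the complex, was 2.55-fold higher in osteoclasts against macrophages of LysM-St18flox and 2.11-fold higher with LysM-St18flox between osteoclasts. Between macrophages, Nox1 was lower with LysM-St18flox by at least 2.31-fold. With other settings the osteoclast minus macrophage difference of Nox1 went to 1.32 in LysM-St18flox from 2.85, and so below the bound given, and to 0.65 in wild-type, its macrophage genotype difference to -0.75 and that of Ncf1 in wild-type osteoclasts to -0.96.

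**Figure D4:**
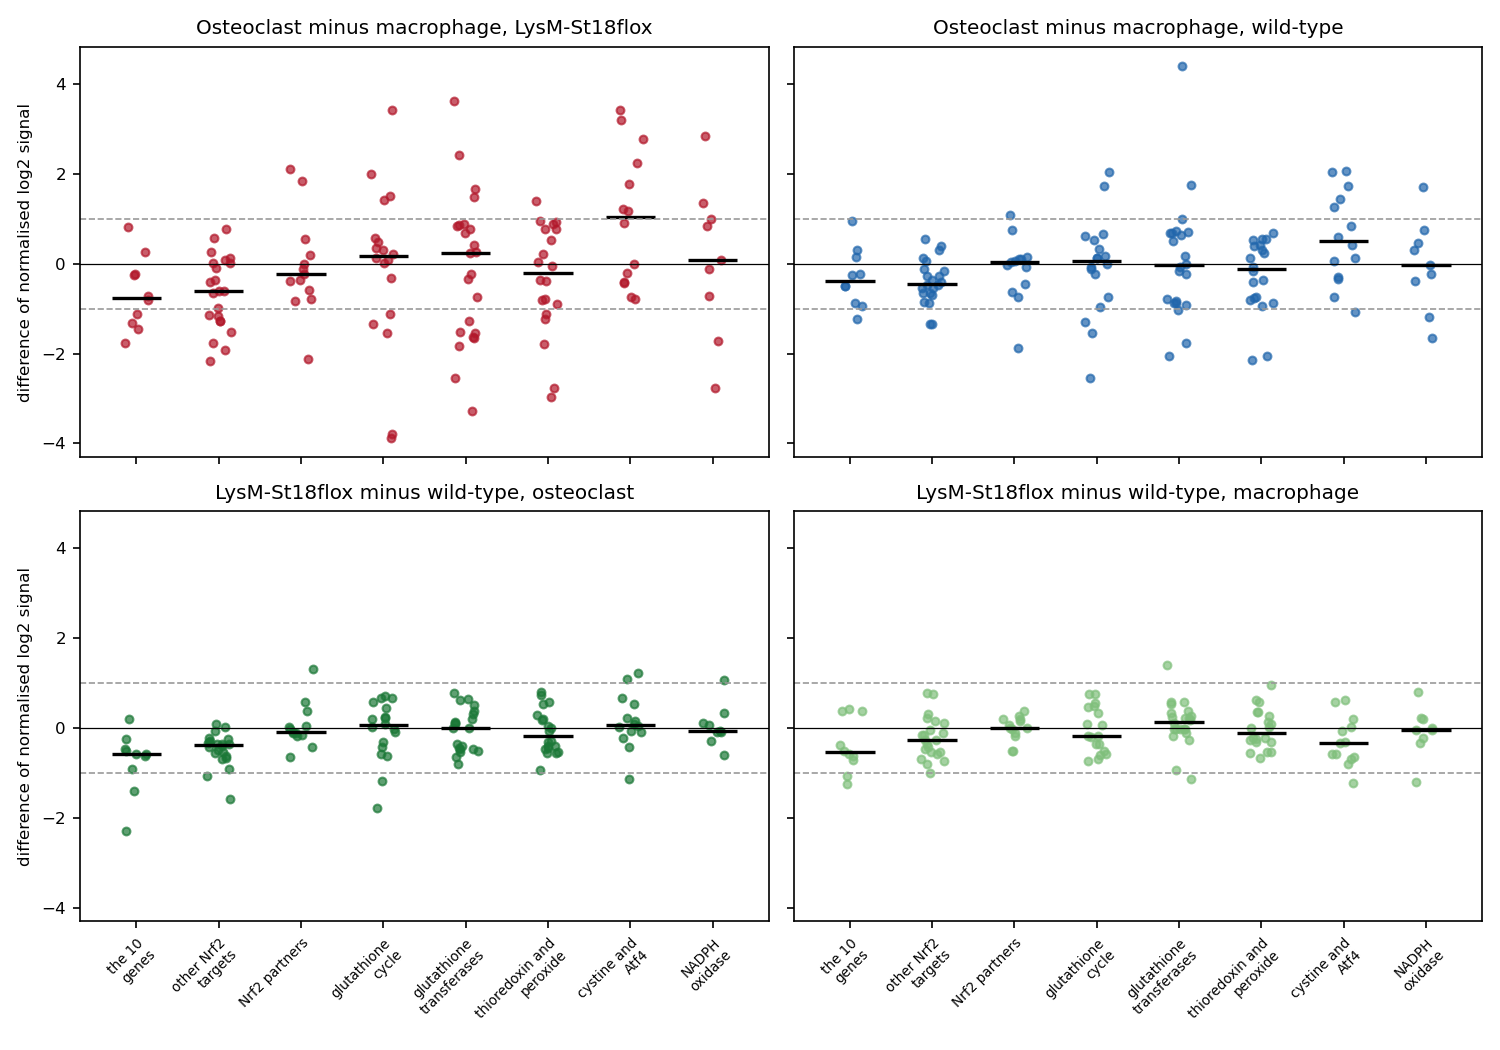
Differences of normalised log2 signal of the 10 genes and of the 7 pathway lists in the 4 comparisons. Each point is a gene, black bars are medians and dashed lines mark 2-fold. The medians of the 10 genes and of the other Nrf2 targets are below 0 in all 4 panels, at -0.76 and -0.61 for osteoclast minus macrophage in LysM-St18flox. The median of the thioredoxin and peroxide list is also below 0 in all 4, at -0.21 in that comparison.

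Patterns most like those of the 3 genes with the widest ranges were sought among 13666 genes well above background on all 4 arrays, by the largest distance on any array after each gene was centred on its own mean. For Gsta3 the nearest were Bcl9, Megf9 and Wdr31, at largest distances of 0.18, 0.20 and 0.26 on the log2 scale. For Slc7a11 they were Eid3, Lonrf3 and Gart, at 0.11, 0.28 and 0.32, and for Gclm they were Col9a3, Emilin2 and Adam15, at 0.06, 0.08 and 0.08. Over 4 arrays such likeness is a description only.

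**Figure D5:**
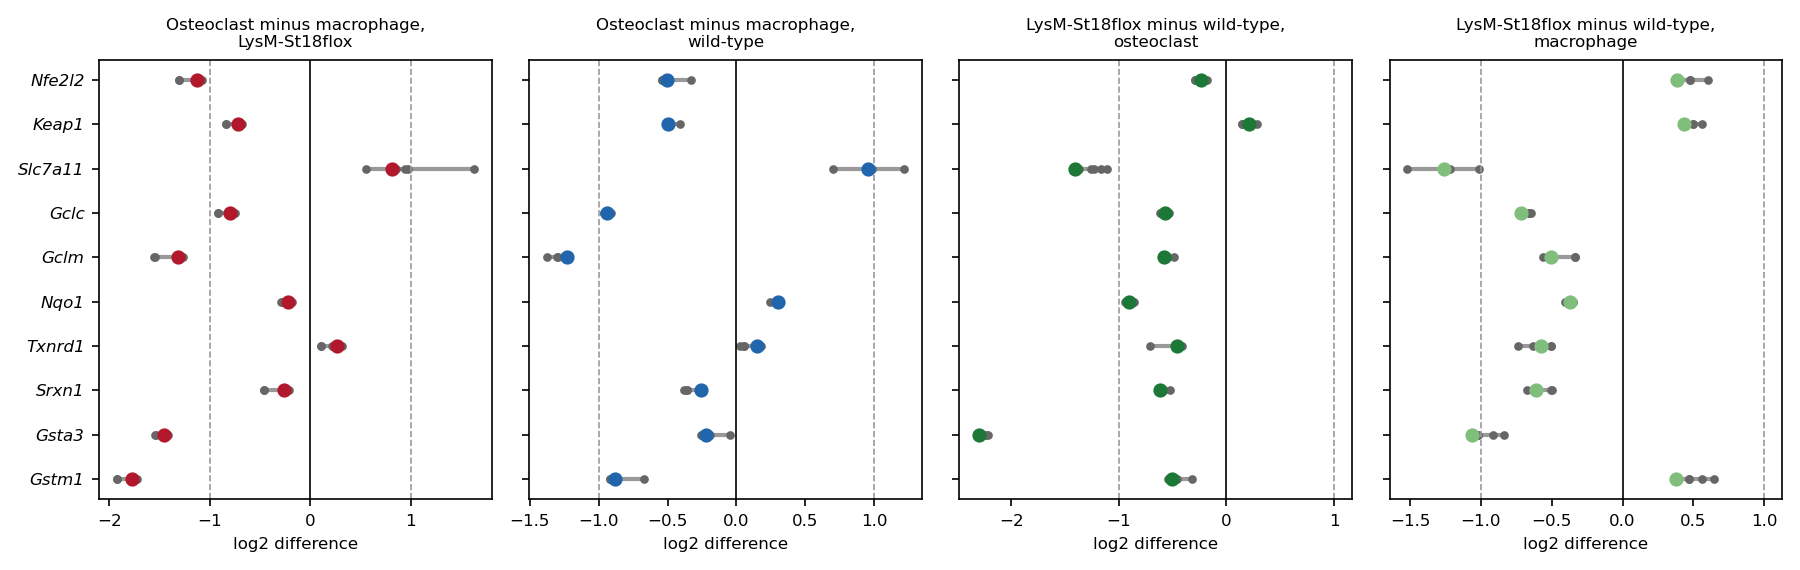
Differences of the 10 genes in the 4 comparisons under each way of processing (grey points, joined by a line) with the reported value in colour, on the log2 scale. Dashed lines mark 2-fold. All 40 differences keep their sign, and those of Slc7a11 in osteoclasts against macrophages and of Gsta3 between macrophages cross 2-fold.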

How the data were processed

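Per the submitters' processing notes, images were read with Agilent Feature Extraction, version 11.0.1.1. Per the file headers, the deposited scanner files hold each spot's processed intensity, with background subtracted within the array, its median pixel intensity and that of the local background, and, as other deposited values, marks of 0 or 1 for uneven or saturated spots and those well above background. A second deposited file, the authors' own log2 table, covers 30909 probes, and the sources used here do not say how it was made. From the values it is quantile-normalised: sorted columns differ by at most 0.0007, each column has a median of 9.39, and each correlates with its own array at 0.9998 or more, so it holds uncentred levels.

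From these files, spots flagged as uneven or outlying (80 to 126 of 59305 per array) were left out, log2 processed intensity was averaged over the spots of a probe, and the 75th percentile of the array was subtracted. Probes were named by RefSeq accession through a gene table of GRCm38.p6, 32994 of 56605 of them. A gene was measured in a comparison when at least 1 of the 2 arrays had its brightest probe well above background. Where only 1 array was, the difference was taken against the higher of the lowest signal well above background and the dim signal itself, and is printed as "at least". Promoter coordinates are those of the RefSeq table, and no array coordinates are used, since the file headers name another build.

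The members and lists were chosen with earlier results of these data known. The text names all 10 members, St18, and of each list at most 4 genes per comparison, by size, among those past 2-fold, with Bach1, Hmox1, Hpgds, Gsr and Atf4 in any case. Gss and Slc3a2 are exceptions to this rule, chosen after their values were seen. Txn1, Prdx1, Gsr, Chac1 and Sesn2 stand in 2 of the 7 lists. Alternatives were normexp background correction (limma 3.58.1, R 4.3.3, offset 50, on the median spot signal, since the mean signal planned for it was not among the columns used here), centring on the median, quantile normalisation, the authors' table, no filter on dim probes, the median over the probes of a gene, and 1.5-fold in place of 2-fold. Scripts ran in Python 3.11.15 with numpy 2.4.6 and pandas 2.3.3 and were tested on simulated data.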

Additional observations from a re-analysis of the deposited data

Results flagged for a closer look

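Differences between genotypes that had opposite signs in the cell types, or the reverse, were singled out, and no difference was tested, since each group had 1 array. With LysM-St18flox, Nfe2l2 was lower between osteoclasts (-0.24) and higher between macrophages (0.39), a difference of -0.62 on the log2 scale. Gstm1 did the same, with -0.51 in osteoclasts and 0.38 in macrophages, a difference of -0.89. Nqo1 was lower in osteoclasts than in macrophages of LysM-St18flox (-0.23) and higher in osteoclasts than in macrophages of wild-type (0.30), a difference of -0.53. All 3 kept these signs under each of the 6 other ways of processing tried, though not all of these could change them. Leaving out the filter could not move these values, and the median over probes could not move Nfe2l2 and Nqo1, which have 1 probe each. None of the single differences reached 2-fold.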

How the results depend on the processing

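Of 240 recomputed differences of the 10 genes, over 6 other ways of processing, 0 changed sign and 4 crossed 2-fold, those of Slc7a11 and Gsta3 given above. Some of the 240 could not change: leaving out the filter moved none of them, and the median over probes cannot move the 6 genes with 1 probe. The authors' table is itself quantile-normalised, so it largely repeats that setting. The count past 2-fold for osteoclast minus macrophage was 4 in LysM-St18flox and 7 at 1.5-fold, and 1 in wild-type, 2 with the median over probes and 4 at 1.5-fold. The median over probes added Slc7a11 in both genotypes, and it was higher in osteoclasts (1.63 in LysM-St18flox, 1.22 in wild-type). At 1.5-fold the shares of all genes in this comparison were 42.5% in LysM-St18flox and 27.3% in wild-type. For LysM-St18flox minus wild-type the count of the 10 was 2 in osteoclasts and 4 at 1.5-fold, and 2 in macrophages, 1 with normexp, 1 with the median over probes and 4 at 1.5-fold. Of all genes, 22.4% in osteoclasts and 21.2% in macrophages reached 1.5-fold in this comparison. For the difference between genotypes in the osteoclast minus macrophage difference the count of the 10 was 1, and 2 with normexp, 2 with quantile normalisation, 2 with the authors' deposited table and 3 at 1.5-fold. The share of all genes was 7.9% in the reported setting. It is not given here for the other settings, so their counts cannot be set against all genes. Without the filter on dim probes the median of all genes moved to 0.16 for osteoclast minus macrophage in wild-type, -0.19 for LysM-St18flox minus wild-type in osteoclasts and -0.16 in macrophages, while the values of the 10 genes stayed as reported. The share of higher genes among all those past 2-fold for LysM-St18flox minus wild-type in osteoclasts was 49.1%, and 59.2% with normexp, 62.2% with quantile normalisation and 62.2% with the authors' deposited table. Over all genes, the number past 2-fold was 1132 for LysM-St18flox minus wild-type in osteoclasts, with 537 by normexp, 695 by the authors' deposited table and 2330 without the filter, and 951 in macrophages, with 556 by normexp and 2093 without the filter. For osteoclast minus macrophage in wild-type it was 1918, and 2985 without the filter. At 1.5-fold there were 6614 and 4018 genes for osteoclast minus macrophage in LysM-St18flox and wild-type (3605 and 1918 at 2-fold), and 3274 and 3222 for LysM-St18flox minus wild-type in osteoclasts and macrophages. Among the pathway lists, normexp took the genotype count of the cystine and Atf4 list to 1 of 3 in osteoclasts and to 0 of 1 in macrophages, and that of the glutathione cycle in osteoclasts to 1 of 2. For osteoclast minus macrophage in LysM-St18flox it left 2 of 4 transferases higher, as the authors' deposited table did, and 3 of 5 glutathione cycle genes lower, while the median over probes gave 10 lower transferases in place of 8. Normexp left 0 of the 2 Nrf2 partners past 2-fold for osteoclast minus macrophage in wild-type. Quantile normalisation put 1 listed transferase past 2-fold between genotypes in osteoclasts and 1 gene of the thioredoxin and peroxide list in macrophages. At 1.5-fold, 12 of the other Nrf2 targets were lower and 1 higher for osteoclast minus macrophage in LysM-St18flox. In wild-type 7 were lower and 0 higher (8 and 2 lower at 2-fold). For LysM-St18flox minus wild-type, 6 were lower and 0 higher in osteoclasts, and 4 lower and 2 higher in macrophages (2 and 1 lower at 2-fold). The cause of these moves was not tested. No paired analysis was possible because each group has 1 array and no test was made, and no array could be left out. Single spots and single arrays limit the precision, most of all for the dim probes of Slc7a11.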
